A study of Arabidopsis thaliana with 15 samples.

Results

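The genes described here code for Arabidopsis thaliana H3K27 demethylases and Trithorax group factors, most of which are known to remove or counteract Polycomb marks. They are the H3K27 demethylases REF6, ELF6, JMJ13, JMJ30 and JMJ32, the Trithorax factors ATX1 and ULT1, and the chromatin remodellers PKL, BRM and SYD. The 10 genes were taken by locus identifier from 27444 nuclear protein coding genes of the TAIR10 annotation. No peak was required of them, but earlier results of these data were known when the genes were chosen. The study set the 2 Polycomb marks, H2A monoubiquitination (H2AK121ub) and H3 lysine 27 trimethylation (H3K27me3), against the loss of Polycomb proteins in 10-day-old whole seedlings of the Col-0 strain. H2AK121ub was immunoprecipitated from emf1, ring1ab and wild type, and H3K27me3 from emf1, lhp1, ring1ab and wild type, with 2 libraries in each of these 7 groups and 1 wild-type input. The values below come from the 2 wild-type consensus peak lists, which hold 16310 H2AK121ub peaks and 4367 H3K27me3 peaks.

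Each list gives the chromosome, start and end of a peak and no signal. The depth is therefore unknown, no value below has a spread between replicates, and the mutants were not analysed here. A gene outside every peak is a gene without a call, which is not evidence that its nucleosomes lack the mark. Whole seedlings mix many cell types, so a peak may come from some of the cells only.

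In plants, Polycomb repressive complex 1 (PRC1) places H2AK121ub and Polycomb repressive complex 2 (PRC2) places H3K27me3. The paper describes genes with both marks as generally repressed. Genes with H2AK121ub alone were expressed more highly there, though below active genes without either mark. The paper proposes that H2AK121ub goes with chromatin that is less accessible but still permissive. JmjC domain demethylases take the methyl groups off H3K27, Trithorax factors favour an active chromatin state that opposes PRC2, and remodelling ATPases move nucleosomes. Such factors take part in releasing Polycomb targets, for instance flowering time and floral organ genes. The lists were read here for Polycomb peaks on the genes of these factors themselves.

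By the gene rule of the study, a mark was assigned to a gene where a peak overlapped the gene body or the 750 bp before it. An overlap of at least 1 bp was taken here. The paper also describes leaving out genes with low signal, a step that could not be applied to lists without signal. Of the 10 genes, 5 carried H2AK121ub (ELF6, JMJ13, JMJ30, ULT1 and PKL), against 68.1% of all protein coding genes. H3K27me3 was found on 1 of the 10, ULT1, against 29.2% of all genes. ULT1 was also the 1 gene with both marks, a class written H2AK121ub/H3K27me3 that held 24.2% of all genes. The only-H2AK121ub class held 4 of the 10, against 43.9% of all genes, and the remaining 5 (REF6, JMJ32, ATX1, BRM and SYD) had neither mark, against 26.9%. None of the 10 carried H3K27me3 alone, against 4.93% of all genes. No test was made over these 10 genes, which were not drawn at random, so the counts describe them and do not show that they differ from other genes.

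**Figure D1:**
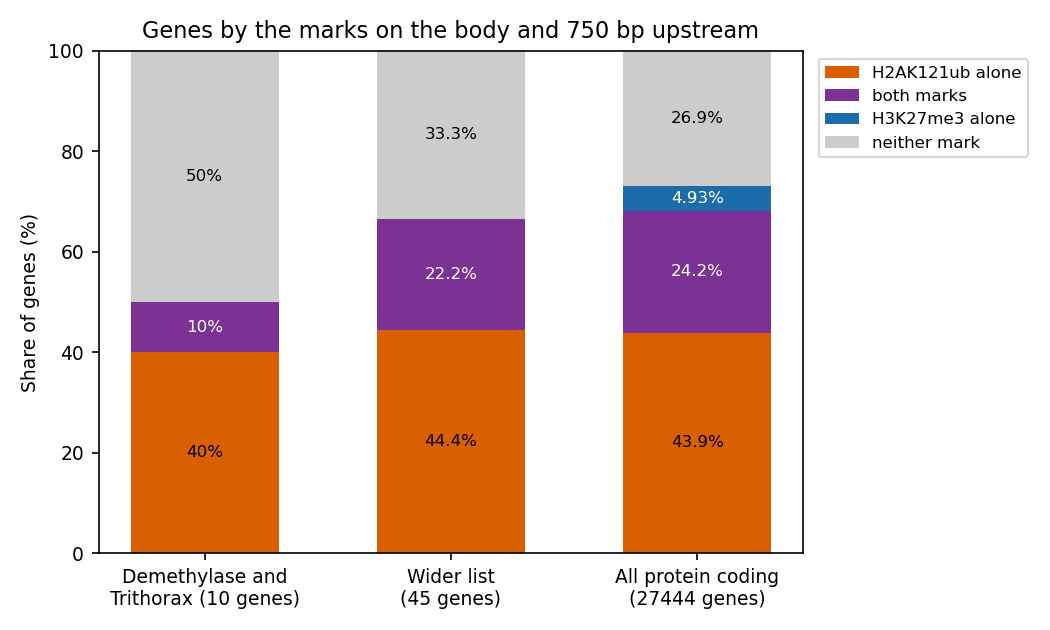
Share of genes (%) carrying H2AK121ub alone, both marks, H3K27me3 alone or neither mark on the gene body and the 750 bp upstream, for the 10 demethylase and Trithorax genes, a wider list of 45 related genes and all 27444 protein coding genes. Neither mark was found on 50% of the 10 genes, 33.3% of the wider list and 26.9% of all genes.

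By role, 3 of the 5 demethylase genes carried H2AK121ub and none of the 5 carried H3K27me3. Of the 2 Trithorax factor genes, ULT1 carried both marks and ATX1 neither. Of the 3 remodeller genes, PKL had H2AK121ub in its upstream window and BRM and SYD had no mark. Over all protein coding genes, 68.1% carried H2AK121ub, 29.2% carried H3K27me3 and 26.9% carried neither. By the gene rule, near relatives fell into different classes: ELF6 was marked and REF6 was not, and JMJ30 was marked and JMJ32 was not. The difference between ELF6 and REF6 depends on the region, since REF6 counts as marked with 750 bp added downstream. Whether relatives differ more often than other pairs of genes was not tested.

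Few bases of these genes were under a peak. H2AK121ub peaks lay over 5229 of the 68756 bp in the bodies of the 10 genes, which is 7.61%, against 24.9% of the body bases of all protein coding genes. H3K27me3 peaks lay over 146 bp, or 0.212%, against 13.7%. The median H2AK121ub cover of the gene body was 7.2% over the 5 genes that carried the mark, against 37.9% over all genes that carried it. That median hides 2 kinds of gene, since JMJ30 and ULT1 were covered over most of their bodies and ELF6, JMJ13 and PKL over little or none.

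**Figure D2:**
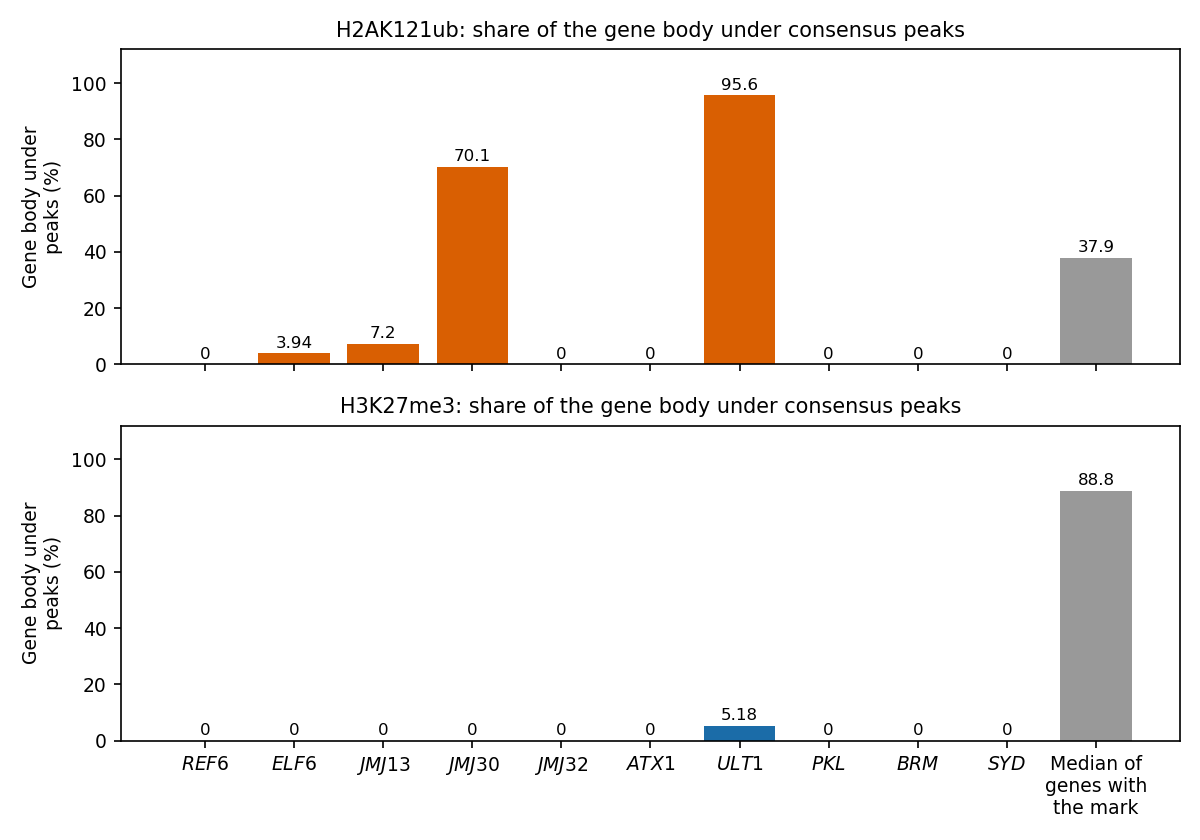
Share of the gene body under consensus peaks (%) for H2AK121ub (upper panel) and H3K27me3 (lower panel), with 1 bar for each of the 10 genes and a grey bar for the median over all protein coding genes that carry the mark. JMJ30 (70.1%) and ULT1 (95.6%) stood above the H2AK121ub median of 37.9%, and ULT1 (5.18%) was far below the H3K27me3 median of 88.8%.

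The 10 genes are long, with a median of 5688 bp (2696 to 17067 bp) against 2078 bp over all protein coding genes. Both shares differed between length classes of all genes. Among the 1639 genes of 5000 bp or more, 62.9% carried H2AK121ub and 16.4% carried H3K27me3, against 70.8% and 28.2% among the genes from 1500 bp to just under 3000 bp. Of the 10 genes, 7 fell in the class of 5000 bp or more, where 3 carried H2AK121ub. The other 3 fell in the shorter class, where 2 did, JMJ30 and ULT1, the genes covered over most of their bodies. The shares of bases under peaks given above were not matched for length either. The part of length in the counts and in the cover was not tested.

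REF6 (AT3G48430) codes for a demethylase whose zinc fingers bind a short DNA motif. It lies at chr3:17935256-17940792 on the plus strand, is 5537 bp long, and had no peak of either mark over its body or its 750 bp upstream. The nearest H2AK121ub peak, 374 bp long, lay 649 bp beyond the end of the gene, in the neighbour AT3G48440, and the nearest peak on the other side ended 3026 bp before the start. Both adjacent genes carried H2AK121ub, over 17.3% of the body upstream and 13.3% of the body downstream. REF6 thus sat in a gap of 9.21 kb between H2AK121ub peaks and of 54.3 kb between H3K27me3 peaks. With the gene region extended by 750 bp downstream, REF6 would count as marked.

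ELF6 (AT5G04240, chr5:1169153-1174992, plus strand, 5840 bp), the closest relative of REF6, carried H2AK121ub at its far end. A single peak of 230 bp covered the last 32 coding bases and 198 bp of the 3' UTR, and began 5454 bp after the start of the gene. This peak is short: 4.48% of H2AK121ub peaks are shorter. It covered 3.94% of the gene body, and 11.5% of the genes with this mark had less. The coding bases under the peak, chr5:1174607-1174638, are shown because they place its left edge just before the stop codon, which ends the run; capitals mark coding sequence.

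ELF6, coding end under the H2AK121ub peak: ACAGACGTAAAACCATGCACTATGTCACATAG

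JMJ13 (AT5G46910, which the annotation lists by locus only) codes for a demethylase known from the control of flowering by temperature and day length. It lies at chr5:19046339-19051379, plus strand, 5041 bp. Its 1 H2AK121ub peak was 363 bp long and ran from 252 to 614 bp after the start, near the place where the mark is most frequent over all genes. Of the 363 bp, 297 bp were 5' UTR, 3 bp were the start codon and 63 bp the beginning of the first intron. The peak covered 7.2% of the gene body, and 14.2% of the genes with this mark had less. It also contained the whole of AT5G06885, a long non-coding RNA gene of 268 bp on the opposite strand, so the list cannot assign it to one of the 2 genes. A larger H2AK121ub peak of 2453 bp lay 189 bp past the end of JMJ13, and the gene on that side, AT5G46915, was covered over 91.5% of its body. On the other side, a 5703 bp H3K27me3 peak ended 4756 bp before the start, and of the genes it touched (AT5G46880, AT5G46890 and AT5G46900) the one next to JMJ13, AT5G46900, was fully covered by H3K27me3. The intron bases under the JMJ13 peak, chr5:19046891-19046953, follow the start codon directly and are printed without capitals.

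JMJ13, first intron under the H2AK121ub peak: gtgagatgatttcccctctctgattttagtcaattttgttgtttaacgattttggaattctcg

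JMJ30 (AT3G20810, JMJD5 in the annotation) codes for a demethylase that is also a component of the circadian clock. It lies at chr3:7275645-7278420, plus strand, 2776 bp. H2AK121ub covered 1945 bp, or 70.1%, of its body in 2 peaks, and 67% of the genes with this mark had less. The first peak, 1047 bp, ran from 38 to 1084 bp after the start and the second, 898 bp, from 1817 to 2714 bp. A stretch in the middle was not covered, nor were the outermost bases at either end of the gene. By annotation, 77.5% of the 5' UTR, 80.2% of the coding bases, 40.2% of the intron bases and 85.1% of the 3' UTR lay under the 2 peaks. No base of the 750 bp before the outermost annotated start was in a peak. Counted from the latest annotated start of JMJ30, the first peak begins at -23 bp and so reaches into the upstream window. The nearest H3K27me3 peak was 8004 bp away. The 250 bp before the start, chr3:7275395-7275644, lie outside the peaks and are shown to set beside those of ULT1, which lie inside one.

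JMJ30, 250 bp upstream: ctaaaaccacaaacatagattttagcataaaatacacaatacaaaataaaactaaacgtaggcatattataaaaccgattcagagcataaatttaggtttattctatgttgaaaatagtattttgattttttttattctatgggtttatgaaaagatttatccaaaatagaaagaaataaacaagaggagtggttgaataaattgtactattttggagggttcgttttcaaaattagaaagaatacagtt

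JMJ32 (AT3G45880, chr3:16868914-16871609, minus strand, 2696 bp), which acts with JMJ30 at the floral repressor gene FLC in warm conditions, had neither mark. Its nearest H2AK121ub peak was 4409 bp long and lay 1215 bp past the 3' end, in and beyond the neighbour UMAMIT3. A 3499 bp H3K27me3 peak lay on the same side, 2234 bp from JMJ32, over AT3G45860 and not over the body of UMAMIT3. It reached the upstream window of UMAMIT3, which by the gene rule therefore carried both marks. The 2 demethylase genes of this pair are of similar length and differed in the lists by 1945 bp of H2AK121ub.

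ATX1 (AT2G31650, chr2:13455272-13462431, minus strand, 7160 bp), a histone H3 lysine 4 methyltransferase of the Trithorax type, had neither mark. Short H2AK121ub peaks stood on both sides, 297 bp long at 1194 bp from its upstream window and 737 bp long at 2347 bp from its 3' end. The nearest H3K27me3 peak was 12095 bp away, and the gap between H3K27me3 peaks around ATX1 was 66.3 kb, the widest of the 9 genes without that mark.

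ULT1 (AT4G28190, chr4:13984695-13987510, plus strand, 2816 bp) codes for a SAND domain protein of the Trithorax group that opposes the PRC2 subunit CLF in the meristem. It was the most heavily marked of the 10 genes. A single H2AK121ub peak of 5719 bp, longer than 97.8% of the peaks of this mark, ran from -3028 to 2690 bp around its start. The peak covered 95.6% of the ULT1 body and all of the 750 bp upstream, and 84.8% of the genes with this mark had a smaller covered share of the body. The 5' UTR, the coding bases and the introns were covered in full, and 72.8% of the 3' UTR was. The same peak took in AT4G28180 in full, 97.3% of AT4G28170 and the long non-coding RNA genes AT4G08005 and AT4G08015, so it was not a peak of ULT1 alone. The 250 bp before the ULT1 start, chr4:13984445-13984694, lie wholly under this peak and are given for comparison with the unmarked JMJ30 upstream sequence above.

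ULT1, 250 bp upstream: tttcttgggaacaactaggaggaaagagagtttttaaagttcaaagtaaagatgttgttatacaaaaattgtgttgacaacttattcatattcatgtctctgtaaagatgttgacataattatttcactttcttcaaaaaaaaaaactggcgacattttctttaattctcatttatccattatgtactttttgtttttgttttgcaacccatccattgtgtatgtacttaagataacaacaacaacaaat

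The H3K27me3 call of ULT1 rested on 1 peak of 146 bp, from 1125 to 1270 bp after the start, inside the H2AK121ub peak. All of its bases were coding. It covered 5.18% of the gene body, where the median gene with H3K27me3 was covered over 88.8%. Only 15 of the 4367 H3K27me3 peaks were this short or shorter, and 26 were under 200 bp. The call is lost, and with it the H2AK121ub/H3K27me3 class of ULT1, when peaks under 200 bp are left out or an overlap of 200 bp is required. The peak, chr4:13985820-13985965 on the plus strand, has a GC content of 52.1% and is shown because the H3K27me3 result for the 10 genes turns on it.

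ULT1, H3K27me3 peak: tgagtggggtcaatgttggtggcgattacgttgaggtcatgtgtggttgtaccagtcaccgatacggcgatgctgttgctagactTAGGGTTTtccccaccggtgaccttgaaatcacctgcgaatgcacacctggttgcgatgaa

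The capitals mark TAGGGTTT, which is the telobox AAACCCTA read on the other strand. Telobox motifs are bound in Arabidopsis by factors that recruit PRC2. It was found after looking at this sequence, and it lies 1210 to 1217 bp after the ULT1 start. Of windows of 146 bp at the middle of the 4367 H3K27me3 peaks, 2.54% held a telobox on either strand, as did 1.94% of the 146 bp windows of the nuclear genome. The JMJ13 peak also held a telobox, 439 to 446 bp after the start in the 5' UTR, where 6.64% of windows of that length at the middle of H2AK121ub peaks and 4.63% of genome windows held 1. A match of these letters is not evidence of binding.

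PKL (AT2G25170, chr2:10713807-10724106, plus strand, 10300 bp) codes for a CHD3 type remodeller; in pkl mutants the level of H3K27me3 at many genes is known to be lower. None of its body was under a peak. It counted as carrying H2AK121ub because a 3018 bp peak reached 385 bp into its upstream window and ended 366 bp before the start. The peak covered 59.3% of the body of AT2G25169, a gene on the opposite strand that overlaps PKL by 208 bp, and 37.5% of CYP82F1. Among all genes with H2AK121ub, 10.3% carried it through the upstream window alone. PKL loses the mark with the gene body alone, and also when the start is put at the latest of its annotated transcripts, 604 bp further on. A 2689 bp H3K27me3 peak lay 1790 bp from the PKL region on the same side.

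BRM (AT2G46020, chr2:18922533-18932055, plus strand, 9523 bp), an ATPase of SWI/SNF complexes, was the most isolated of the 10 genes from H2AK121ub. Its nearest H2AK121ub peak was 5618 bp away, and 83.2% of the genes without the mark had a nearer peak. Both adjacent genes, AT2G46000 and UBC6, had neither mark. A 3249 bp H3K27me3 peak ended 5587 bp before the start.

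SYD (AT2G28290, chr2:12056213-12073279, plus strand, 17067 bp), the other SWI/SNF ATPase, is longer than 99.9% of protein coding genes. It had no peak over any of its bases, within a gap of 33.6 kb between H2AK121ub peaks. A 1581 bp H2AK121ub peak ended 910 bp before its start, which is 159 bp short of the upstream window, and 6.5% of the genes without the mark had a nearer peak. With a window of 1500 bp upstream SYD would count as marked.

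**Figure D3:**
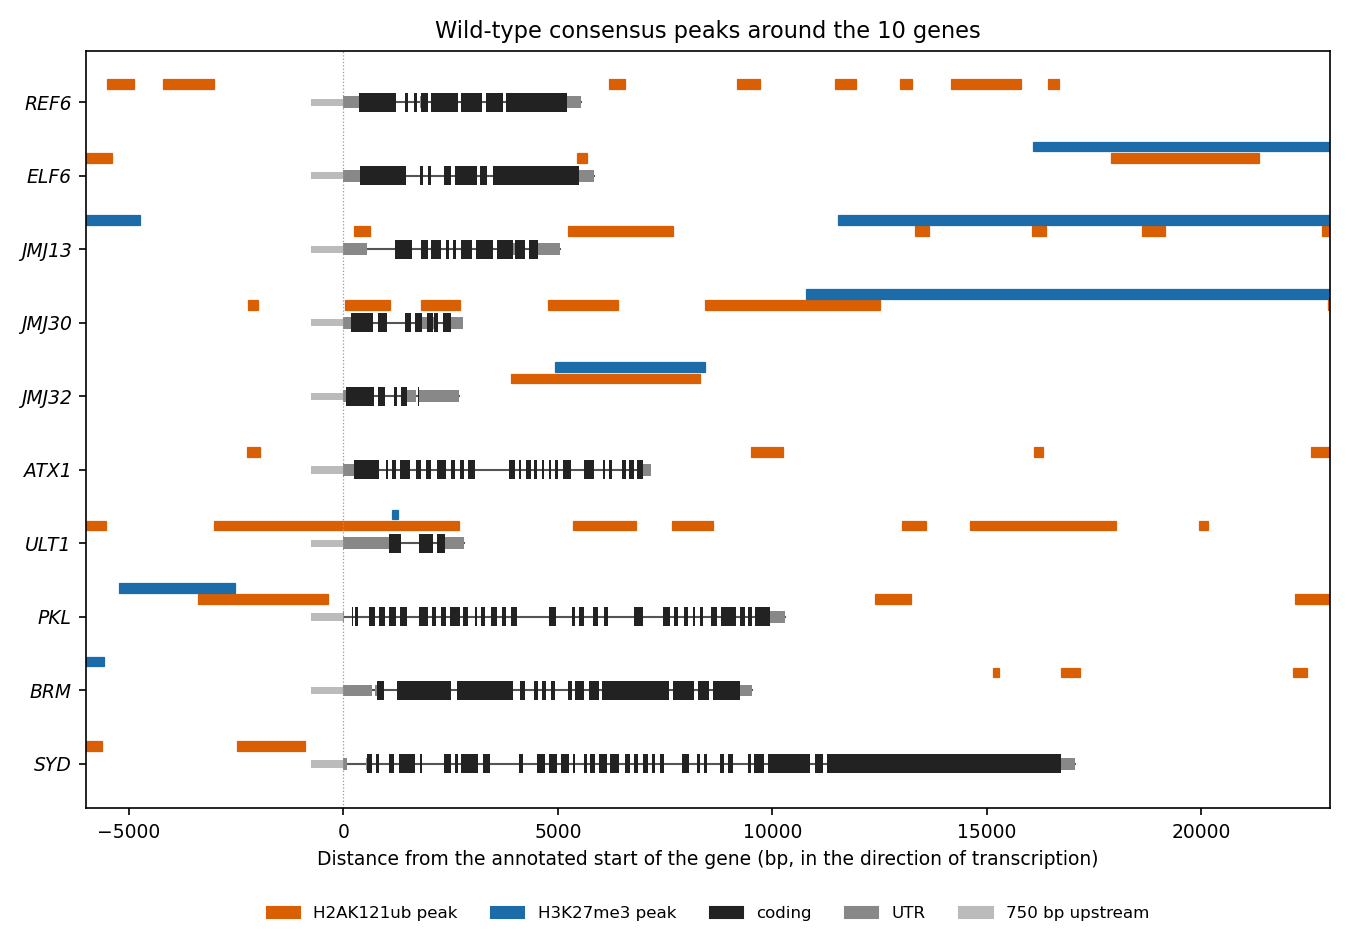
H2AK121ub (orange) and H3K27me3 (blue) consensus peaks around the 10 genes, each drawn in the direction of transcription from its annotated start at 0 (x axis, distance in bp). Black boxes are coding exons, dark grey boxes UTRs, thin lines introns and light grey bars the 750 bp upstream. Peaks lie over the bodies of ELF6, JMJ13, JMJ30 and ULT1, over the upstream bar of PKL, and beside the other 5 genes.

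For the 5 genes without H2AK121ub, the distance to the nearest peak was measured from the body and its 750 bp upstream. It was 159, 649, 1194, 1215 and 5618 bp for SYD, REF6, ATX1, JMJ32 and BRM. The median was 1194 bp against 1600 bp over all genes without the mark. An H2AK121ub peak lay over or within 5000 bp of 9 of the 10 genes, all but BRM, against 93.8% of all genes. For H3K27me3 this count was 5 of 10 (JMJ13, JMJ32, ULT1, PKL and BRM), against 57.5% of all genes. The nearest H3K27me3 peak of the 9 genes without that mark was 1790 to 18675 bp away, with a median of 6331 bp against 7009 bp over all genes without it. REF6 and SYD, at 18675 and 18541 bp, were the farthest. Of the 20 protein coding genes next to the 10, 14 carried H2AK121ub, 3 carried H3K27me3 and 5 carried neither. The shares over all protein coding genes were 68.1%, 29.2% and 26.9%.

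Over all protein coding genes, H2AK121ub was most frequent just inside the gene, with a peak over the base 350 bp after the start in 51.3% of genes and over the start itself in 30.2%. Of the 10 genes, 3 (JMJ13, JMJ30 and ULT1) had a peak at 350 bp and 1, ULT1, at the start. At 250 bp before the start the count was 1 of 10 against 25.1% of all genes. For H3K27me3, none of the 10 had a peak at 350 bp, where 20.1% of all genes had 1.

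**Figure D4:**
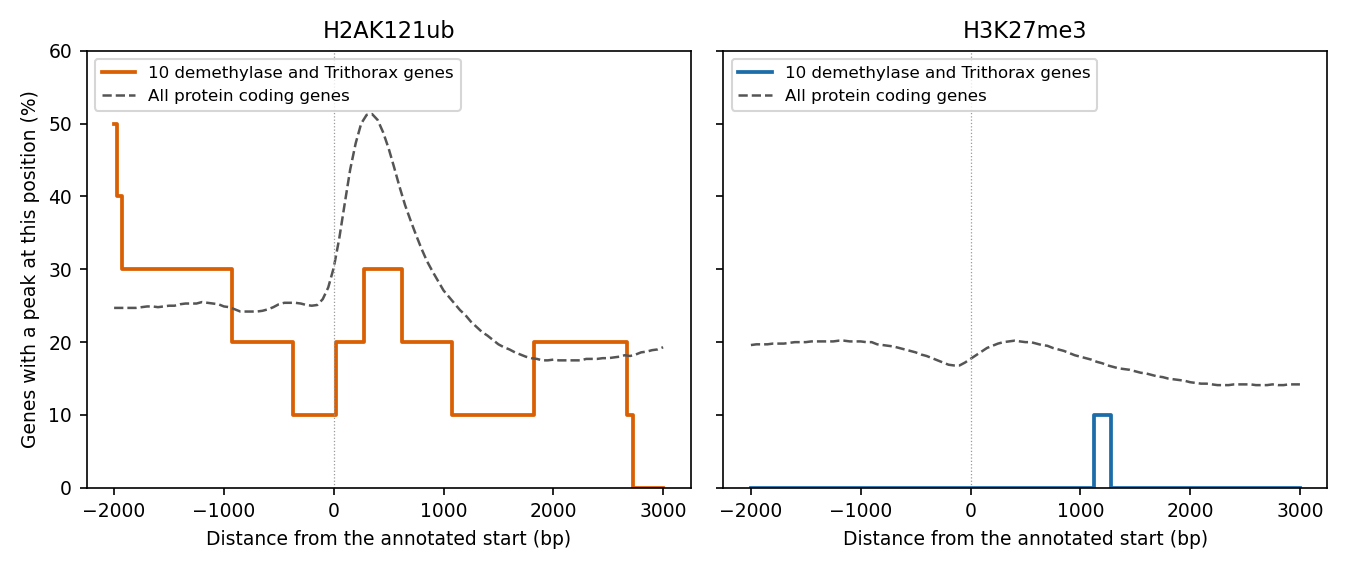
Share of genes (%) with an H2AK121ub peak (left) or an H3K27me3 peak (right) at each position from 2000 bp before to 3000 bp after the annotated start, in steps of 50 bp, for the 10 demethylase and Trithorax genes (solid line) and all protein coding genes (dashed line). The dashed H2AK121ub line peaks at 51.3% at 350 bp, where the solid line stands at 30%; with 10 genes, each gene is a step of 10 points.

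The 250 bp upstream of each gene were searched on both strands for motifs linked to these factors. The motif bound by REF6 (CTCTGCTC, CTCTGCTT, CTCTGTTC or CTCTGTTT), the evening element of clock-controlled genes (AAAATATCT) and the telobox (AAACCCTA) were found in none of the 10, against 5.77%, 2.36% and 4.49% of 27443 promoters. The GAGA motif (GAGAGA), bound in Arabidopsis by BPC proteins that interact with Polycomb factors, was found in 3 of the 10, against 20.6% of all promoters. The motif also occurred inside H2AK121ub peaks of marked genes, but those peaks are longer than 250 bp, so these searches cannot be compared. Whether the motif is more frequent in promoters of unmarked genes was not tested. The 3 promoters with the motif were those of REF6, BRM and SYD, which had no peak of either mark. In each the letters read TCTCTC on the coding strand, from -52 to -45 bp in REF6, from -168 to -163 bp in BRM and from -199 to -190 bp in SYD; runs of overlapping matches are counted as 1 stretch. The median GC content of the upstream sequences was 27.6% (23.6% in PKL to 40.8% in JMJ32) against 31.2% over all promoters. Those of ELF6 (36.8%), SYD (38.4%) and JMJ32 were above 31.2% and the others below it. The sequences of PKL and JMJ32 lie inside the neighbouring genes AT2G25169 and RUS1. The 3 sequences with the motif in capitals are at chr3:17935006-17935255, chr2:18922283-18922532 and chr2:12055963-12056212, all on the plus strand.

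REF6, 250 bp upstream: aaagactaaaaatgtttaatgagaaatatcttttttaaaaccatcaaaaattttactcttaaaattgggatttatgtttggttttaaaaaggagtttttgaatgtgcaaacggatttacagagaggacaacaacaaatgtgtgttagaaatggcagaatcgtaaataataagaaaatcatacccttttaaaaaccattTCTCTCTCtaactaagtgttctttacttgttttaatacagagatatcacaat
BRM, 250 bp upstream: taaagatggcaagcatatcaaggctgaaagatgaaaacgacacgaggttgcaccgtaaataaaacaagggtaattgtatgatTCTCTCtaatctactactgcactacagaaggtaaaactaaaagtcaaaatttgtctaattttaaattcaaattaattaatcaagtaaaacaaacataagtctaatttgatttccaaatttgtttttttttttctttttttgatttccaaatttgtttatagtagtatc
SYD, 250 bp upstream: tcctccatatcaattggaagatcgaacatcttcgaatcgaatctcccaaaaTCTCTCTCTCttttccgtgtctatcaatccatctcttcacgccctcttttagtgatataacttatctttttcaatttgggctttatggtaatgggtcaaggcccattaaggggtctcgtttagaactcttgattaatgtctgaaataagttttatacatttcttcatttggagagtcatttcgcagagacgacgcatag

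Inside the JMJ30 body, the first H2AK121ub peak held an evening element 99 to 107 bp after the start, in the 5' UTR. Windows of 1047 bp held this element at the middle of 4.6% of H2AK121ub peaks and in 4.98% of genome windows. The second JMJ30 peak held the REF6 motif CTCTGTTT 2520 to 2527 bp after the start, in the 3' UTR, and the JMJ13 peak held CTCTGTTC 450 to 457 bp after the start. Windows of the same lengths at the middle of H2AK121ub peaks held a REF6 motif in 32.8% and 16.2% of cases, and genome windows in 22.4% and 10%. The ULT1 H2AK121ub peak held 6 REF6 motifs, of which 1 lay in the 5' UTR and 1 in the coding sequence. At least 1 was held by 81.6% of windows of that length at the middle of H2AK121ub peaks and by 76.2% of genome windows. Matches per window were not counted over these windows, so the numbers of matches given here have no background. GAGA motifs lay in the H2AK121ub peaks of ULT1 (28 matches, overlapping ones included), PKL (5 matches) and JMJ30 (1 in each peak), and in none of the ELF6 and JMJ13 peaks. Windows of the same lengths at the middle of H2AK121ub peaks held at least 1 in 99.5% of cases for ULT1, 94.9% for PKL, and 72.7% and 68.1% for the first and second JMJ30 peak. The shares of genome windows were 98.1%, 91.3%, 60.4% and 55.1%, in the same order. The ULT1 and PKL peaks are longer than 97.8% and 88.1% of H2AK121ub peaks. Most windows of these 2 lengths therefore reach beyond the peak at their middle.

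The wider list held 45 other genes of the same pathways, chosen by family, with earlier results of these data known. It had 30 genes with H2AK121ub (66.7%, against 68.1% of all protein coding genes) and 10 with H3K27me3 (22.2%, against 29.2%). All 10 with H3K27me3 also had H2AK121ub, as did 6655 of the 8009 protein coding genes with H3K27me3. Neither mark was found on 15 genes (33.3%), against 26.9% of all protein coding genes. Of 15 other JmjC domain genes, 9 carried H2AK121ub and 3 carried H3K27me3 (JMJ15, JMJ18 and JMJ20). Of 14 other Trithorax type SET domain and COMPASS genes, 11 carried H2AK121ub and 3 carried H3K27me3 (ASHH2, RBL and ULT2). Of 16 other SWI/SNF and CHD remodeller genes, 10 carried H2AK121ub and 4 carried H3K27me3 (SWP73A, SWP73B, CHR12 and PKR2).

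In 7 of these 10 genes H3K27me3 lay in the upstream window alone, against 21.6% of all protein coding genes with H3K27me3. With the gene body as the region the count was 3: JMJ15 (30.1% of the body), ULT2 (56.5%) and PKR2 (100%). The H3K27me3 body cover of these 3 genes was above that of ULT1, the 1 marked gene of the 10. ULT2 codes for the paralogue of ULT1, and its 56.5% H3K27me3 body cover stands against 5.18% in ULT1, with 62% H2AK121ub body cover against 95.6% in ULT1. PKR2, a relative of PKL that is known for its expression in developing seeds, lay wholly under H3K27me3 and had 29.8% H2AK121ub body cover, where PKL had 0% of both. PKR1, the other PKL relative, and ATX2, the closest relative of ATX1, had neither mark. The H2AK121ub body cover of the wider list ran from 2.51% in ATXR7, the lowest value above 0, to 87.3% in WDR5A, a subunit of COMPASS complexes that methylate H3 lysine 4.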

How the data were processed

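Chromatin of 10-day-old whole seedlings was immunoprecipitated with anti-H2Aub and anti-H3K27me3 antibodies. Reads were aligned by the authors with Bowtie (TAIR10), and peaks were called in every wild-type replicate (MACS2, default parameters, input as control) and kept where the replicates shared them, which can shorten a peak. They also describe adding wild-type peaks of an earlier seedling age, so a listed peak need not come from these libraries alone. Versions were not given in the sources used here. The 2 deposited lists hold positions only, with no count, score or signal; starts, counted from 0 in the files, are given from 1.

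Peaks were intersected with the RefSeq annotation of TAIR10.1 (37899 nuclear genes) in Python 3.11.15, with overlap functions tested on simulated data. Sequences are RefSeq TAIR10.1, 5' to 3' on the strand of the gene, and distances count from 0 at the outermost annotated start. The 10 genes, the wider list and the motifs were chosen with earlier results of these data known. Genes named are all 10, those of the wider list with H3K27me3 or the longest or shortest cover, and those sharing a peak with 1 of the 10; paralogues and other neighbours were named after their values were seen. Of the 45 wider list symbols, 30 were in the annotation and the others were placed by locus. No test was run.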

Additional observations from a re-analysis of the deposited data

How the results depend on the processing

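Members are the 10 genes. Of 32 recomputed counts of members, 28 stayed within 1.5 times their value. The exceptions were the counts with H3K27me3 and with both marks, which were 0 with an overlap of at least 200 bp and 0 with peaks of at least 200 bp. The count with H2AK121ub was 4 with the gene body alone (without PKL), 6 with 1500 bp upstream (with SYD), 6 with 750 bp downstream added (with REF6), and 4 with the latest annotated start, an alternative chosen after seeing the data. Merging peaks across gaps of at most 500 bp changed no count or cover. Taken from the first to the last coding base, H2AK121ub cover was 0.628% for ELF6, 1.65% for JMJ13 and 100% for ULT1, and H3K27me3 cover was 11.2% for ULT1; with peaks of at least 200 bp the last was 0%. From the latest start, the first JMJ30 peak began at -23 bp. In the wider list, the gene body alone, also chosen after seeing the data, gave 3 genes with H3K27me3 and 3 with both marks. The background share with H2AK121ub was 58% over all nuclear genes, 68.3% over genes of at least 3000 bp and 65.2% with an overlap of 200 bp; the shares with H3K27me3 were 26.1%, 20.5% and 27.3%.

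No paired analysis was possible because each list is a consensus without replicate values. A stricter peak score and leaving out a replicate were not run, since no scores are given either. Without signal, weak marking under the calling threshold cannot be seen.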
